A study of Homo sapiens with 21 samples.

Results

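NBDY, ATPAF1, BCL6, DNAH1, RBM34, PGPEP1, ERCC3 and MLLT10 are 8 protein-coding genes, of 20423 in the table, whose messages were lower in THP1 cells with JDP2 knocked out than in every kind of control cell the study sequenced. They were chosen by normalized counts lower in the JDP2 knockout than in the knockout control and than in wild-type and shRNA control cells. The rule states no size of change, and not how the 8 were taken from the many genes with this direction. The low level in the JDP2 knockout is therefore how they were picked, and it is described below with its error and with no test.

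THP1 is an established human acute myeloid leukemia line whose cells resemble monocytes. JDP2 KO and ATF7 KO cells had received Lenti-CRISPRv2 constructs, a lentiviral vector for Cas9 and a guide, and each gene is represented by 2 single-cell clones with 2 libraries per clone. IRF2BP2 knockdown cells carried 1 of 2 short hairpin RNAs in the pLKO.1 vector, with 3 libraries per hairpin. The references were 2 KO control libraries, 2 shRNA control libraries (replicates 1 and 3) and 1 WT library (replicate 2). All cells were THP1 grown in the same RPMI medium with serum, and each clone of a knockout is the progeny of 1 cell. The labels do not say whether the KO control was cloned, what its construct carried, or whether replicates were separate cultures, so the spread between replicates may be technical.

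JDP2 and ATF7 belong to the basic leucine zipper family, whose members bind DNA as dimers at AP-1 sites and cyclic AMP response elements. JDP2 is known mainly as a repressor that competes with Jun and Fos proteins and recruits histone deacetylases, and ATF7 also represses genes until it is phosphorylated in response to stress. IRF2BP2 is a transcriptional cofactor, named as a partner of the interferon regulatory factor IRF2. The 8 genes have unrelated roles. NBDY encodes the microprotein NoBody, which binds the messenger RNA decapping complex, and RBM34 encodes a nucleolar RNA-binding protein. ATPAF1 helps assemble the F1 part of mitochondrial ATP synthase. BCL6 is a zinc-finger repressor, ERCC3 (XPB) is a helicase of the general transcription and repair factor TFIIH, and MLLT10 (AF10) is a cofactor of the histone H3 methyltransferase DOT1L and a fusion partner in leukemia. PGPEP1 is a cytosolic peptidase that removes an N-terminal pyroglutamyl residue, and DNAH1 is a heavy chain of axonemal dynein, the motor of cilia and sperm tails.

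In GENCODE 29 on GRCh38 the genes lie apart on the genome. NBDY lies on chromosome X (56729241 to 56818380, plus strand), ERCC3 on chromosome 2 (127257290 to 127294176, minus strand), and MLLT10 on chromosome 10 (21524675 to 21743630, plus strand). BCL6 (187721377 to 187745727, minus strand) and DNAH1 (52316319 to 52400491, plus strand) are on chromosome 3. ATPAF1 (46632737 to 46673867, minus strand) and RBM34 (235131183 to 235161457, minus strand) are on chromosome 1, and PGPEP1 (18340587 to 18369950, plus strand) is on chromosome 19.

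The bases before the start sites were read from RefSeq (GRCh38.p14), and 7 of the 8 genes had an entry, with 12 windows of 250 bases. Both strands were searched for the AP-1 site TGACTCA, which reads TGAGTCA on the other strand, the cyclic AMP response element TGACGTCA, and its half-site TGACG, which reads CGTCA on the other strand and is part of the full element. The AP-1 site was found in 1 of the 12 windows, that of an alternative start of BCL6, against 4.20% of 35116 windows of all genes. The full element was found in 0 of the 12, against 1.65% of all windows, and the half-site in 0 of the 12, against 21.2%. The BCL6 match lies 77 bases before that start, in bases also annotated as a BCL6 exon. It is printed with 10 bases on each side, a stretch at chr3:187736562-187736588 on the minus strand. The site is in capitals, and it is printed because it is the single match to a JDP2 or ATF7 motif. NBDY (chrX:56728993-56729240, plus strand) and ERCC3 (chr2:127294177-127294394, minus strand) are printed up to their first exons because NBDY had the lowest share of its control level in JDP2 KO and ERCC3 a share typical of the others. Neither stretch has capitals, since it holds none of the searched letters, which says nothing about binding elsewhere.
BCL6 site: gcatctggagTGAGTCAttgccacttg
NBDY: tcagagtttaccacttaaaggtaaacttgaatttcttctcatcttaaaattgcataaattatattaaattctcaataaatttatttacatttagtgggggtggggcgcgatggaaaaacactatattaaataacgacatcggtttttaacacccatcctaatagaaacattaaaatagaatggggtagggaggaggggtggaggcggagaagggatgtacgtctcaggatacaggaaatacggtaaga
ERCC3: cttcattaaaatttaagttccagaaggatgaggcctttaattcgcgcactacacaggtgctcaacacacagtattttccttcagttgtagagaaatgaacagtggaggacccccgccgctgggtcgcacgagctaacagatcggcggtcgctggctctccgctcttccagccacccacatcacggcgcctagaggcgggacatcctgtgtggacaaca

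Reads in genes numbered 28.65 to 60.2 M (mega) per library, with 14263 to 19046 genes detected, and levels are given as normalized counts (reads divided by a size factor for each library). In 3 libraries over 20% of genes were over 2-fold away from the gene's own median over all 19 libraries. These libraries were JDP2 KO clone 1 replicate 2 (38.2%), IRF2BP2 shRNA 1 replicate 3 (48.5%) and IRF2BP2 shRNA 2 replicate 3 (25.6%). All 12 monocytic markers averaged at least 10 normalized counts, and their summed level was 39339 to 77130 in JDP2 KO against 43873 to 108970 in the controls. Of the erythroid and megakaryocyte markers 2 of 5 averaged at least 10, with HBB and PF4 among those below that, and the sum was 105 to 395 in JDP2 KO against 410.1 to 886 in the controls, a difference whose part in the results was not tested. Of the other markers, 3 of 6 lymphoid ones reached that level (sum 375 to 927 in JDP2 KO, 643 to 816 in controls), as did 3 of 6 epithelial and stromal ones (sum 47.4 to 242 in JDP2 KO, 42.4 to 344 in controls). The targeted JDP2 message itself was 3158, 5693, 4652 and 5368 in the 4 JDP2 KO libraries, against 3438 and 5085 in KO control, and ATF7 averaged 534 ± 128 in ATF7 KO (SD, n = 4) against 419 ± 168 in KO control (SD, n = 2). Message levels thus did not check either edit, since a frameshift can leave the message in place. IRF2BP2 averaged 10122 ± 872 with hairpin 1 and 18296 ± 6686 with hairpin 2 (SD, n = 3 each), against 17677 ± 997 in shRNA control (SD, n = 2). These means were 56.4% and 101.9% of the mean of all 5 controls, so hairpin 2 did not lower the message on average. Its libraries were 12587, 16649 and 25651. The group named IRF2BP2 knockdown below pools both hairpins.

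NBDY was nearly absent from JDP2 KO cells. Its normalized count was 2.11 and 0 in clone 1 and 0 and 0 in clone 2, against 167 and 196 in KO control, 67.7 and 31.9 in shRNA control and 40.3 in WT. Over the 4 JDP2 KO libraries this was 2 reads, against 452 reads in the 2 KO control libraries. The ratio of depth-scaled counts was 0.00274, with an exact 95% interval for counting error only of 0.000331 to 0.00996, and against the 140 reads of WT and shRNA control it was 0.0109 (0.00131 to 0.0403). On the log2(normalized count + 1) scale the change was -7.10 ± 0.90 (SE) against KO control and -5.09 ± 0.62 against WT and shRNA control, values that depend on the pseudocount (-5.09 against KO control with 5 added) and bound nothing. The controls themselves did not share 1 level, since both KO control libraries lay above the other 3. In ATF7 KO, NBDY was 10.8 and 32.5 in clone 1 and 26.6 and 14.4 in clone 2, which overlapped the lowest shRNA control library. In bulk RNA, fewer cells that make a message and less message in each cell cannot be told apart.

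RBM34 was low to a similar degree in each JDP2 clone. It stood at 951 and 1035 in clone 1 and 880 and 949 in clone 2, against 2829 and 2453 in KO control, 2845 and 2192 in shRNA control and 1973 in WT. The JDP2 KO mean of 954 ± 63.4 (SD, n = 4) was 38.8% of the mean of all 5 controls, 2458 ± 385 (SD). The log2 change was -1.47 ± 0.25 against KO control and -1.28 ± 0.26 against WT and shRNA control. Its range in JDP2 KO did not touch that of any other group, but ATF7 KO came close. RBM34 was 1716 and 1409 in ATF7 KO clone 1 and 1099 and 1044 in clone 2. ARID4B overlaps RBM34 on the same strand, and whether the counting used strand is not stated in the labels, so reads of the overlap cannot be assigned further. ARID4B itself differed by -0.28 ± 0.44 on the log2 scale.

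ATPAF1 was low in both knockouts. It was 37.95 and 57.8 in JDP2 KO clone 1 and 23.0 and 13.5 in clone 2, against 209.7 and 185 in KO control, 196 and 299 in shRNA control and 343 in WT. The JDP2 KO mean was 33.1 ± 19.3 (SD, n = 4), which is 13.4% of the control mean of 247 ± 70.4 (SD, n = 5). The log2 change was -2.73 ± 0.54 against KO control and -3.19 ± 0.45 against WT and shRNA control. In ATF7 KO it was 33.4, 33.6, 35.9 and 52.8, so the knockouts overlapped each other and neither reached any control.

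The nuclear genes BCL6, ERCC3 and MLLT10 had JDP2 KO means of 33.8% to 34.9% of the mean of all 5 controls. BCL6 was 103 and 112 in JDP2 KO clone 1 and 141 and 141 in clone 2, against 325 and 394 in KO control, 297 and 336 in shRNA control and 430.3 in WT. The JDP2 KO mean was 34.9% of the control mean, and the log2 change was -1.53 ± 0.29 against KO control and -1.50 ± 0.32 against WT and shRNA control. BCL6 was thus as low against either set of controls.

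ERCC3 was 627 and 468 in JDP2 KO clone 1 and 591 and 552 in clone 2, against 2329 and 1915 in KO control, 1495 and 1303 in shRNA control and 1181 in WT. Its mean in JDP2 KO was 34.0% of the control mean. MLLT10 was 228 and 283 in JDP2 KO clone 1 and 204 and 266 in clone 2, against 932 and 887 in KO control, 677 and 625.0 in shRNA control and 506 in WT, a JDP2 KO mean of 33.8% of the control mean. For both genes the KO control libraries were the highest of the 5 controls, so the size of the change depended on the reference. The log2 change was -1.92 ± 0.25 for ERCC3 and -1.90 ± 0.25 for MLLT10 against KO control. Against WT and shRNA control it was -1.25 ± 0.29 for ERCC3 and -1.29 ± 0.28 for MLLT10.

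PGPEP1 and DNAH1 complete the group. PGPEP1, the most abundant of the 8 in counts, was 1090.0 and 939.8 in JDP2 KO clone 1 and 1174 and 1583 in clone 2, against 2834 and 3260 in KO control, 3502 and 3572 in shRNA control and 3051 in WT. Its JDP2 KO mean was 36.9% of the control mean, with a log2 change of -1.37 ± 0.28 against KO control and -1.52 ± 0.31 against WT and shRNA control. DNAH1 was 232 and 201 in JDP2 KO clone 1 and 196 and 280.5 in clone 2, against 579 and 691 in KO control, 543 and 615 in shRNA control and 749 in WT. Its JDP2 KO mean was 35.8% of the control mean, with a log2 change of -1.49 ± 0.30 and -1.48 ± 0.37 against those control sets. Apart from NBDY and ATPAF1, the shares of the pooled control mean ran from 33.8% to 38.8%, but with the reference taken apart they spread more. The fitted ratio to KO control ran from 0.264 for ERCC3 to 0.387 for PGPEP1, and that to WT and shRNA control from 0.349 for PGPEP1 to 0.422 for ERCC3.

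**Figure D1:**
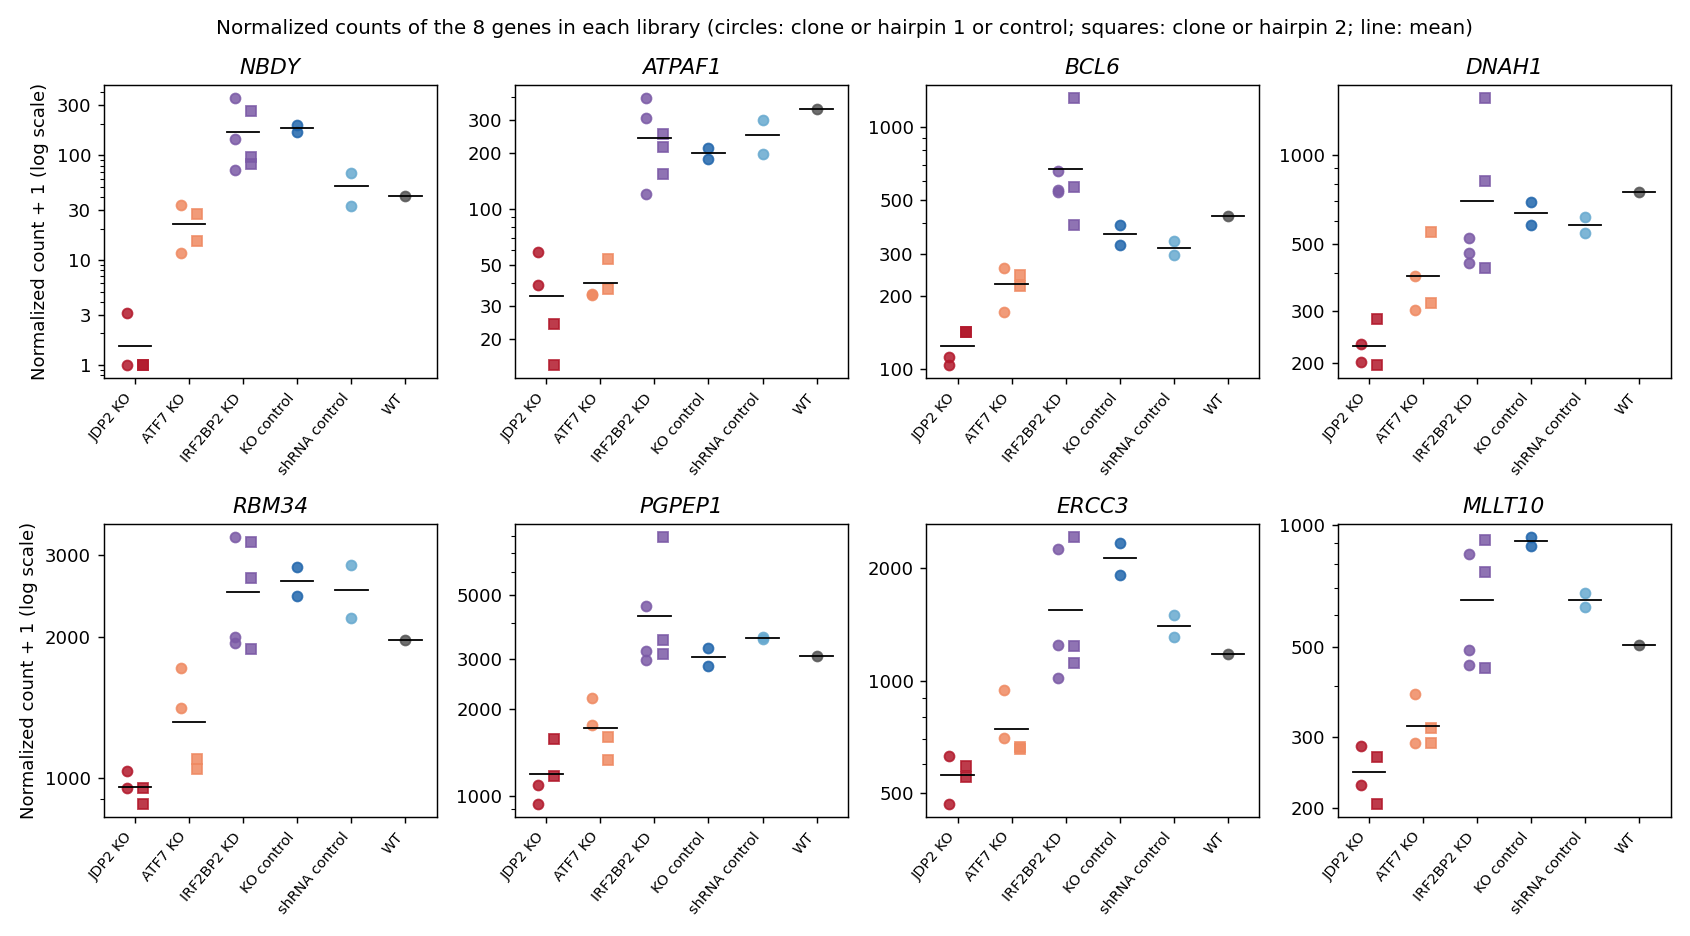
Normalized count + 1 (log scale) of each gene in all 19 libraries, by group, with a line at the group mean. JDP2 KO is the lowest group for all 8 genes and ATF7 KO the next lowest, and NBDY has a count of 0 in 3 of the 4 JDP2 KO libraries.

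How common such a pattern is was read from all 13021 genes whose normalized count averaged 10 or more, which all 8 passed. The 4 JDP2 KO libraries lay below all 5 controls for 806 genes, or 6.19%, so the chosen 8 are a small share of the genes with that pattern. All JDP2 KO libraries lay below both KO control libraries for 14.1% of genes and below the 3 WT and shRNA control libraries for 9.64%. In the limma fit of JDP2 KO against KO control, 89 of 13208 genes passed an adjusted p of 0.05, which is 0.674%, of which 87 were lower (0.659%). The 8 genes are among the 87, and since that contrast chose them nothing is read from it. In the authors' deposited table, the log2 fold change against controls was -3.32 ± 0.43 (SE) for NBDY and -2.47 ± 0.33 for ATPAF1, and between -1.45 for MLLT10 and -1.29 for RBM34 among the other 6. Without JDP2 KO clone 1 replicate 2, which stands apart, the 8 changes moved by 0.04 to 0.33 on the log2 scale, most for ATPAF1. All 8 stayed below 0, which was set in advance, since every JDP2 KO library lay below every control for these genes.

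All 8 genes had the second lowest mean in ATF7 KO. How many of all genes have this order was not counted, so nothing is read from it. The comparison of ATF7 KO with KO control shares its control libraries with the rule. ATF7 KO lay below both KO control libraries for all 8 genes, against 10.8% of all genes, and below all 5 controls for 6 of 8, against 2.54%. Because of the shared controls, nothing is read from these shares. Among the 806 genes with JDP2 KO below all 5 controls, ATF7 KO was also below them for 238. NBDY and DNAH1 were not below all 5 controls. ATF7 KO kept 15.8% of the control mean of ATPAF1 and 20.95% of that of NBDY. It kept 43.9% for MLLT10, 45.1% for ERCC3, 53.1% for PGPEP1, 53.6% for RBM34, 61.4% for DNAH1 and 62.9% for BCL6. The log2 change against KO control was -3.17 ± 0.90 for NBDY, -2.34 ± 0.54 for ATPAF1, -1.52 ± 0.25 for ERCC3 and -1.52 ± 0.25 for MLLT10. It was -1.03 ± 0.25 for RBM34, -0.84 ± 0.28 for PGPEP1, -0.74 ± 0.30 for DNAH1 and -0.69 ± 0.29 for BCL6. Against WT and shRNA control the same genes ran from -2.80 ± 0.45 for ATPAF1 to -0.66 ± 0.32 for BCL6, with NBDY at -1.16 ± 0.62.

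**Figure D2:**
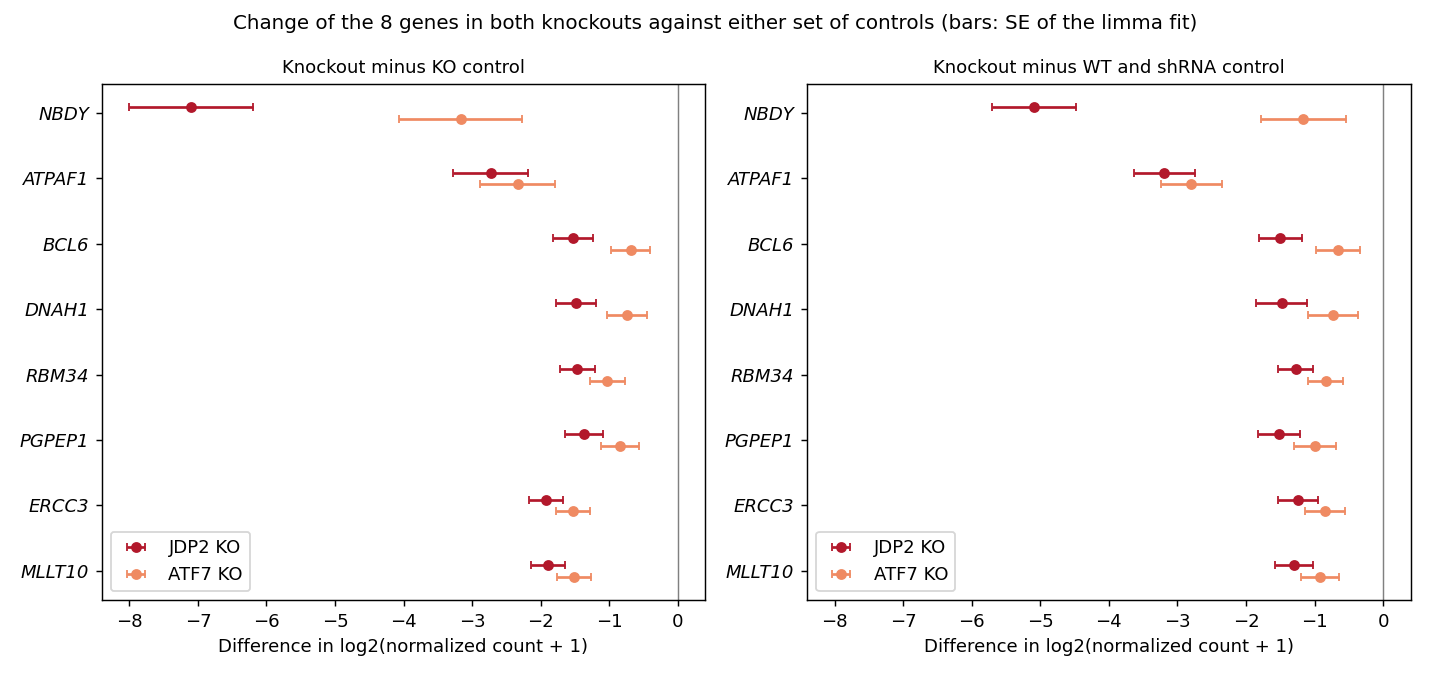
Difference in log2(normalized count + 1) of JDP2 KO and of ATF7 KO from KO control (left) and from WT and shRNA control (right), with SE bars. All points lie below 0, and each JDP2 KO point lies below its ATF7 KO point, at a difference of -3.93 for NBDY and -0.84 to -0.38 for the other genes.

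Set directly against ATF7 KO, the JDP2 KO libraries were lower without overlap for 6 of the 8 genes, against 0.914% of all genes, with ATPAF1 and PGPEP1 overlapping. For the same 6 genes JDP2 KO lay below all of the other 15 libraries, against 0.253% of all genes. The difference was largest for NBDY, whose 2 reads in JDP2 KO compare with 75 in ATF7 KO, a ratio of 0.0240 (exact 95% interval 0.00286 to 0.0898). It was -0.84 ± 0.23 on the log2 scale for BCL6, -0.75 ± 0.24 for DNAH1, -0.53 ± 0.23 for PGPEP1 and -0.44 ± 0.21 for RBM34. It was -0.40 ± 0.20 for ERCC3, -0.39 ± 0.44 for ATPAF1 and -0.38 ± 0.20 for MLLT10. The ATPAF1 difference was smaller than its error. The JDP2 KO values were part of the rule, so these differences are descriptions.

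The 8 genes stood higher in IRF2BP2 knockdown than in JDP2 KO. All 4 JDP2 KO libraries lay below all 6 knockdown libraries for each of the 8 genes, against 11% of all genes. The low JDP2 KO values were part of the rule, so nothing is read from this share. The lowest, median and highest of the knockdown libraries were 71.0, 119 and 350.4 for NBDY, 118, 233 and 391 for ATPAF1, and 394, 557 and 1312 for BCL6. Against shRNA control NBDY differed by 1.57 ± 0.60 and BCL6 by 0.97 ± 0.39 on the log2 scale, both higher in the knockdown. The remaining 6 genes lay between -0.13 ± 0.44 (ATPAF1) and 0.15 ± 0.39 (PGPEP1). These shRNA control libraries also served the rule, so no test is given.

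The knockdown and ATF7 KO libraries were not used by the rule, so the difference between ATF7 KO and IRF2BP2 knockdown was tested. Its spread was estimated over all 19 libraries, which include those the rule used. Libraries of the same clone or hairpin entered as separate replicates. The p-values thus take libraries, and not clones or hairpins, as the units. The test called 7 of the 8 genes lower in ATF7 KO by limma at an adjusted p of 0.05 over 13021 genes, where 14.7% of genes were called in either direction and 8.64% lower. ATPAF1 averaged 38.9 ± 9.32 in ATF7 KO (SD, n = 4) and 239 ± 100.4 in the knockdown (SD, n = 6), a limma log2 difference of -2.50 ± 0.38 with an adjusted p of 0.000303. NBDY averaged 21.1 ± 10.2 in ATF7 KO and 168 ± 114 in the knockdown, a difference of -2.80 ± 0.52 (limma adjusted p 0.00172). BCL6 averaged 224 ± 39.2 in ATF7 KO and 669 ± 326 in the knockdown, and differed by -1.48 ± 0.27 (limma adjusted p 0.00134). All 3 were lower in every ATF7 KO library than in any knockdown library.

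The shifts of the other genes were smaller. PGPEP1 differed by -1.21 ± 0.26 (limma adjusted p 0.00424) and ERCC3 by -0.99 ± 0.25 (limma adjusted p 0.0118). MLLT10 differed by -0.98 ± 0.23 (limma adjusted p 0.00918) and RBM34 by -0.91 ± 0.22 (limma adjusted p 0.00902). DNAH1, at 300.8 to 549.6 in ATF7 KO and 415 to 1543 in the knockdown, differed by -0.70 ± 0.31 and was not called (limma adjusted p 0.130). In all, ATF7 KO lay below the knockdown without overlap for 7 of 8 genes, against 7.97% of all genes. Cloned CRISPR cells and hairpin cells differ in how they were made, and this cannot be told apart from the gene targeted. The same 7 were called when any library was left out, while the count over all genes, 1916, was 967 without ATF7 KO clone 2 replicate 2 and 1162 without ATF7 KO clone 1 replicate 2.

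Clones of a knockout were then set beside each other. The JDP2 KO libraries chose the genes, so the JDP2 clones are described with no test. ATPAF1 was 18.2 ± 6.77 in JDP2 KO clone 2 and 47.9 ± 14.04 in clone 1 (SD, n = 2 each), a log2 difference of -1.36 ± 0.52 (SE). The other differences ran from -0.82 ± 1.15 for NBDY, a gene with 2 reads in clone 1 and 0 in clone 2, to 0.43 ± 0.30 for PGPEP1. In ATF7 KO clone 2 against clone 1, 0 of the 8 had an unadjusted p under 0.05 by limma, against 874 of 13208 genes. At the adjusted p limma called 0 of 8, against 40 of 13208 genes (0.303%). The extremes there were RBM34 at -0.54 ± 0.28 and ATPAF1 at 0.37 ± 0.52. The count over all genes was 193 and 198 without JDP2 KO clone 1 replicates 1 and 2, 25 and 26 without JDP2 KO clone 2 replicates 1 and 2, 17 without either library of ATF7 KO clone 1, and 18 without either KO control library.

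In IRF2BP2 shRNA 2 against shRNA 1, limma called 0 of 8 and 0 of 12738 genes (0%), with 0 of the 8 and 917 genes at an unadjusted p under 0.05. The differences ran from -0.26 ± 0.44 for ATPAF1 to 0.77 ± 0.41 for DNAH1. The 917 became 2475 without IRF2BP2 shRNA 1 replicate 1 and 501 without replicate 3 of that hairpin. The count was 356 without replicate 3 of IRF2BP2 shRNA 2. Without IRF2BP2 shRNA 2 replicate 2, 1 of the 8 had such a p, against 651 of 12809 genes. Neither edgeR nor DESeq2 called any of the 8 genes between ATF7 clones or between hairpins, where over all genes between the hairpins edgeR called 0 and DESeq2 25. Differences of the 8 genes were thus not detected, which does not show that clones or hairpins were alike.

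**Figure D3:**
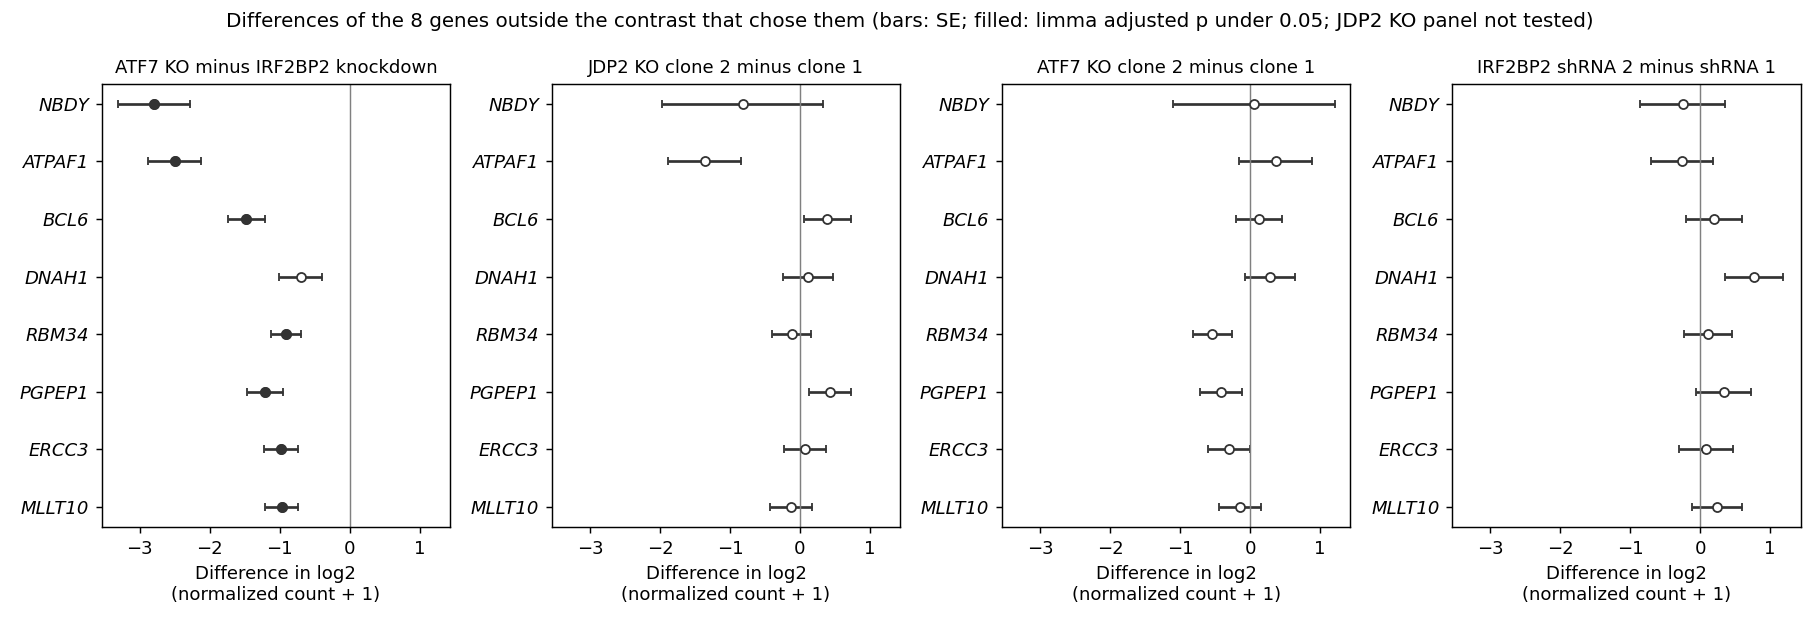
Difference in log2(normalized count + 1) for the 8 genes in 4 comparisons, with SE bars and filled points where the limma adjusted p is under 0.05. The JDP2 KO clones took part in the choice of genes and were not tested. ATF7 KO minus IRF2BP2 knockdown is below 0 for all 8 genes with 7 filled, and none is filled between ATF7 KO clones or hairpins.

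Genes that work with the 8 were examined next in JDP2 KO against KO control, as 12 lists with 211 genes tested that are not among the 8. Limma called 1 of the 211, against 0.674% of all genes, so the lists held no more calls than the background. The gene was EDC3, lower in JDP2 KO, a scaffold of the messenger RNA decapping complex to which the NBDY product binds. EDC3 averaged 1093 ± 246 in JDP2 KO (SD, n = 4) and 3393 ± 213 in KO control (SD, n = 2), a log2 change of -1.66 ± 0.28 with a limma adjusted p of 0.0204. Against WT and shRNA control the change was -0.95 ± 0.27, and EDC3 was not called by limma. In both fits the libraries of a clone entered as separate replicates. The list of decapping and P-body factors had 22 genes tested with 12 below 0 and a median log2 change of -0.06, against 0.00 for all genes.

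The EDC3 call needed both KO control libraries and both libraries of JDP2 KO clone 2. Its limma adjusted p was 0.178 without KO control replicate 1, 0.299 without KO control replicate 2, 0.0622 without JDP2 KO clone 2 replicate 1 and 0.0693 without JDP2 KO clone 2 replicate 2. With a single KO control library, that library is assumed to vary like the other groups. The count over all genes, 89, became 0 by limma without either KO control library, with 2211 and 762 genes at an unadjusted p under 0.05. It was 12 and 20 without the JDP2 KO clone 2 replicates 1 and 2, 56 without JDP2 KO clone 1 replicate 1, and 56, 54 and 49 without ATF7 KO clone 1 replicate 1, clone 1 replicate 2 and clone 2 replicate 2. EdgeR also called EDC3 alone among the 211, while DESeq2 called 5, namely APEH, CCNH, DDB1, EDC3 and MAFK, with 4 of them lower. The names other than EDC3, here and among the calls of other settings, were picked after their values were seen.

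The other 11 lists had 0 genes called by limma, with 0 to 5 members each at an unadjusted p under 0.05, against 16.8% of all genes. APEH, a cytosolic peptidase, was called lower by limma with quantile normalization, with equal totals and without JDP2 KO clone 1 replicate 2, and ATP5MK, a small ATP synthase subunit, with equal totals. Of the TFIIH subunits, among which ERCC3 is the helicase, 9 were tested with 5 below 0 and a median log2 change of -0.21. The second TFIIH helicase ERCC2 stood at 0.20 ± 0.32. Of 16 other nucleotide excision repair factors, 11 were below 0, with a median of -0.20 and RPA2, a subunit of the single-strand DNA-binding protein RPA, at -0.83 ± 0.48. Of 22 ATP synthase subunits and assembly factors, 11 were below 0 and the median was 0.05. The catalytic subunit ATP5F1B was at 0.29 ± 0.23 and ATP5F1A at 0.38 ± 0.24.

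The remaining lists covered chromatin, cilia, the nucleolus and bZIP factors. Of 15 DOT1L and elongation partners, 9 were below 0 with a median of -0.27, and DOT1L was at 0.37 ± 0.31. Of 15 genes known as DOT1L targets in KMT2A leukemia, 7 were below 0 with a median of 0.04, with MYB at 0.06 ± 0.26 and HOXA10 at 0.08 ± 0.37. The median was -0.21 for 15 BCL6 corepressors, with CTBP1 at 0.98 ± 0.46. It was 0.06 for 19 genes that BCL6 is known to repress in B cells or macrophages, with the proto-oncogene MYC at 0.21 ± 0.29 and the cell cycle inhibitor CDKN1B at 0.29 ± 0.32. It was -0.28 for 14 axonemal dynein chains, -0.04 for 22 nucleolar RNA-binding proteins, -0.30 for 18 cytosolic peptidases and 0.21 for 25 bZIP partners of JDP2 and ATF7. Several medians had the other sign against WT and shRNA control, where they were 0.31 for the dynein chains, 0.21 for the nucleolar proteins, 0.02 for the peptidases, -0.01 for the bZIP partners, 0.08 for TFIIH, 0.09 for the decapping factors, -0.16 for the DOT1L targets and -0.21 for the genes BCL6 represses. They were -0.40 for the other repair factors, 0.32 for ATP synthase, -0.41 for the DOT1L partners and -0.18 for the BCL6 corepressors. Among the bZIP partners ATF4, an activator of the stress response, was at 0.66 ± 0.25 (limma adjusted p 0.242).

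**Figure D4:**
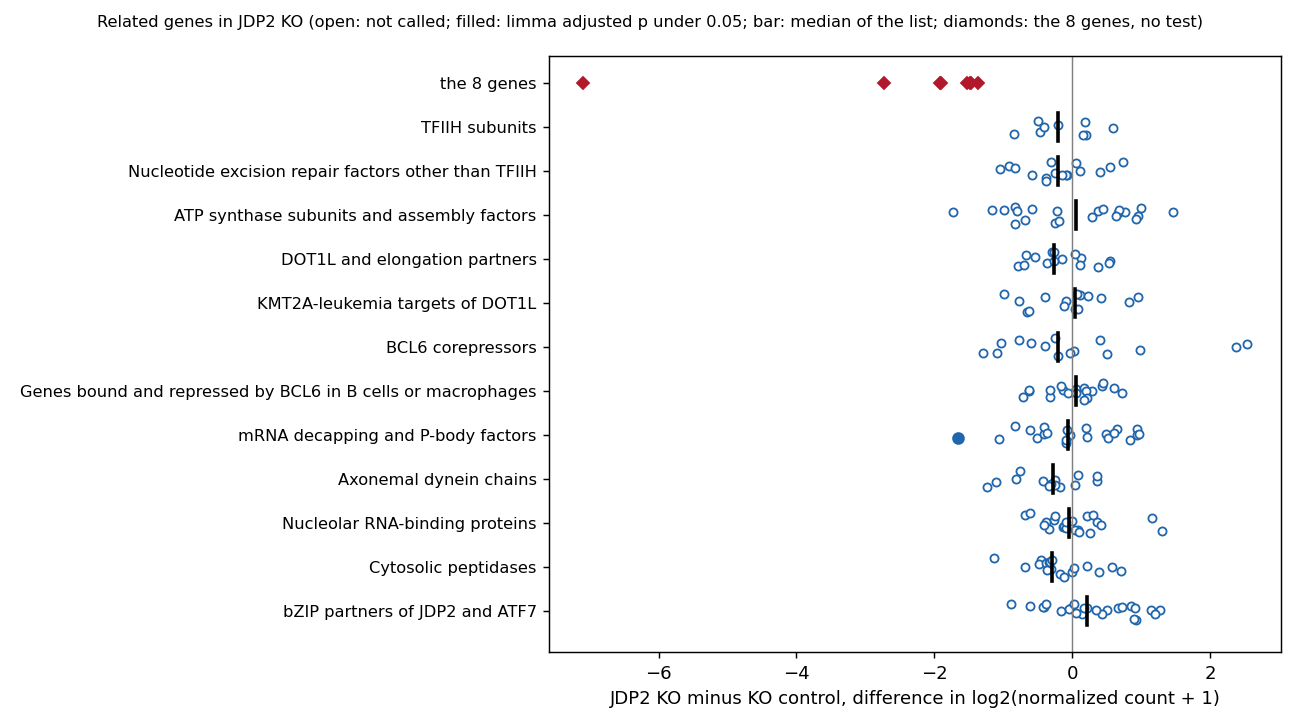
Difference in log2(normalized count + 1), JDP2 KO minus KO control, for the 8 genes (diamonds, chosen by this contrast and not tested) and for the tested genes of 12 lists (circles), with a bar at each list's median. The list medians lie between -0.30 and 0.21, and EDC3 is the filled circle at -1.66.

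Genes overlapping the 8, and the nearest gene on each side averaging at least 10 normalized counts, were examined for a similar change. The nearest genes lay from 522 bases (BAP1) to 1734274 bases (MALRD1, from MLLT10) away, so not all were adjacent. Of 17 neighbouring or overlapping genes tested, limma called 0 in JDP2 KO against KO control, edgeR and DESeq2 also called 0, and 2 had an unadjusted p under 0.05 by limma. The log2 changes of the 17 ran from -0.67 for LPP, 407557 bases from BCL6, to 0.94 for LSM4, 17313 bases from PGPEP1, with a median of 0.13. UBQLN2, 161373 bases from NBDY, was at -0.10 ± 0.27. SPIN2B, 300171 bases from NBDY on its other side, was at 0.83 ± 0.26, and MOB3C, 15846 bases from ATPAF1, at 0.60 ± 0.26. BAP1, 522 bases from DNAH1 on the opposite strand, was at -0.22 ± 0.33, and MAP3K2, 4554 bases from ERCC3, at -0.37 ± 0.35.

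The genes with the most similar profile over the 19 libraries were found by Pearson correlation of log2 values among 11078 genes, as a description, since libraries of a group share their cells. ERCC3 was the gene nearest to RBM34 (r = 0.95), and PGPEP1 was the gene second nearest to DNAH1 (r = 0.869). COPG1, a coat protein subunit of Golgi vesicles, was near both PGPEP1 (r = 0.963) and RBM34 (r = 0.948), and averaged 1549 in JDP2 KO, 1876 in ATF7 KO, 4238 in the knockdown and 4235 in KO control. TAF8, a subunit of the general factor TFIID, was near both ATPAF1 (r = 0.891) and MLLT10 (r = 0.912). BCL6 was nearest to FCGR2A (r = 0.955), an Fc receptor of myeloid cells, which averaged 308 in JDP2 KO, 528 in ATF7 KO, 1618 in the knockdown and 694 in KO control. The nearest gene was STIMATE for ERCC3 (r = 0.961), RBM4 for MLLT10 (r = 0.923), ZSWIM3 for NBDY (r = 0.905) and SLA2 for DNAH1 (r = 0.894). Also near were ABAT to BCL6 (r = 0.942), WDR37 to PGPEP1 (r = 0.951), CEP85 to ERCC3 (r = 0.954), TDP2 to NBDY (r = 0.899) and the inflammasome gene NLRP3 to ATPAF1 (r = 0.861).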

How the data were processed

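Per the submitters' processing notes, the authors used hg38, featureCounts and DESeq2, with no versions; the aligner, gene annotation and use of strand were not given in the sources used here. The normalized table the authors deposited holds a signal per gene and library (a read count divided by a size factor) for 20423 genes and 19 of 21 labelled libraries; 2 libraries marked low quality were not analysed here. Whole reads were recovered from it for 100% of 388037 values within 0.01. They also deposited 3 comparison tables holding a p-value, a Wald score, and the log2 fold change with its error. The score and p-value were not used here, and per the file headers the base mean is a signal.

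The 8 genes and the lists were chosen with earlier results of these data known. Values were analysed as log2(normalized count + 1) with limma 3.58.1 in R 4.3.3 (trend, empirical Bayes) over genes with a mean of at least 10 in the fit, called at a Benjamini-Hochberg adjusted p of 0.05 over all genes tested; this scale understates changes of low genes. JDP2 KO, ATF7 KO and KO control shared a fit, with a group per clone for clone comparisons; the hairpins were fitted with shRNA control; comparisons with WT and shRNA control and of ATF7 KO with the knockdown used all 19 libraries in 6 groups. Alternatives used edgeR 4.0.16 and DESeq2 1.42.0 on recovered reads. Named genes were the 8, the 3 targets, for each of the 8 the 2 genes of mean at least 50 with the highest Pearson r, and for each list up to 4 called genes or else the 2 most abundant; the neighbours named were not chosen by this rule. A gene that this rule takes is not reported here. Replicate numbers did not pair the libraries. Counting intervals cover counting error only, with reads of 28.65 to 60.2 M per library. The highest correlation between libraries was 0.985.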

Additional observations from a re-analysis of the deposited data

Results flagged for a closer look

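Each of the 8 genes was examined for a library far from its group in 4 sets of libraries, 32 sets in all, and 6 were set apart, where chance gives about 1 in 20. In IRF2BP2 shRNA 2 replicate 3, a library that stands apart over all genes, BCL6 was 1312 against a next highest of 656 in the knockdown, DNAH1 was 1543 against 817, and PGPEP1 was 7924 against 4554. In ATF7 KO, ATPAF1 was 52.8 in clone 2 replicate 2 against a next highest of 35.9, and ERCC3 was 945 in clone 1 replicate 1 against 702. In JDP2 KO, NBDY was 2.11 in clone 1 replicate 1, from 2 reads, while the other 3 libraries were at 0. These are values only, and their causes were not tested.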

How the results depend on the processing

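All 8 genes stayed below 0 in JDP2 KO against either set of controls under every setting run. The rule chose the genes for this direction, so nothing is read from it. NBDY moved most, between -8.40 (DESeq2) and -5.09 (pseudocount 5) against KO control. Scaling to equal totals moved the median of all genes to -0.22 against KO control and -0.26 against WT and shRNA control.

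The count of genes called in JDP2 KO against KO control (89) was 53 with no filter on low values, 526 (151 higher, 375 lower) with DESeq2 and 122 with edgeR on recovered reads, 161 with the replicate number as a block, and 22 with WT and shRNA control in place of KO control. It ranged from 0 to 125 on leaving out a library. In ATF7 KO against IRF2BP2 knockdown 7 of 8 genes were called under each setting except the replicate block, with 6 (ERCC3 adjusted p 0.0699 by limma) and 301 genes called over all. DESeq2 called 2706 genes there, 53 between JDP2 clones, 219 between ATF7 clones and 25 between hairpins. The count between JDP2 clones, 18 with all libraries, was 266 without JDP2 KO clone 1 replicate 1 and 34 in a fit of all 19 libraries. The count between ATF7 clones was 71 in that fit, 93 with the block, 22 with no filter, 26 with equal totals or edgeR and 198 without the 3 libraries that stand apart. None of the 8 genes was called between ATF7 KO clones or hairpins under the settings run. The replicate numbers did not pair the libraries: 5 of 10 distinct knockout correlations of deviations and 3 of 7 knockdown ones were over 0.1, from -0.53 to 0.57 and from -0.31 to 0.37.

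Differences between ATF7 KO clones or hairpins, none of them called, and between JDP2 KO clones, not tested, changed sign in places, and the causes were not tested. With equal totals RBM34 was 0.10 and MLLT10 0.093 between JDP2 clones, and between hairpins BCL6 was -0.15, RBM34 -0.23, PGPEP1 -0.0072, ERCC3 -0.26 and MLLT10 -0.10. With quantile normalization ERCC3 was -0.029 between JDP2 clones, NBDY -0.96 and ATPAF1 -0.63 between ATF7 clones, and RBM34 -0.063 and ERCC3 -0.029 between hairpins. NBDY between ATF7 clones was -0.094 with edgeR and -0.083 with DESeq2. Without the 3 libraries that stand apart, ERCC3 was -0.13 and MLLT10 0.033 between JDP2 clones, and between hairpins BCL6 was -0.35, RBM34 -0.17, PGPEP1 -0.21 and ERCC3 -0.36. Leaving out single libraries gave -1.64 to 0.00 for NBDY, -0.13 to 0.29 for ERCC3, -0.31 to 0.065 for MLLT10 and -0.14 to 0.37 for DNAH1 between JDP2 clones. Between ATF7 clones it gave -0.70 to 0.81 for NBDY, -0.17 to 0.43 for BCL6, -0.34 to 0.062 for MLLT10 and -0.12 to 0.68 for DNAH1. Between hairpins it gave -0.80 to 0.35 for NBDY, -0.055 to 0.36 for RBM34, -0.26 to 0.41 for ERCC3, -0.78 to 0.082 for ATPAF1, -0.30 to 0.57 for BCL6 and -0.089 to 0.59 for PGPEP1. With 2 reads in JDP2 KO, NBDY has no precision beyond its counting interval.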
